A study of Mus musculus with 13 samples.

Results

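Potassium channel genes were taken as every gene whose only symbol in the platform's probe annotation begins with Kcn. The rule found 84 genes on 167 probe sets, of 18193 genes with a single symbol on the array. Each gene was represented by the probe set with the highest mean over the 13 arrays, called its brightest probe set here, and all 84 were kept whatever their level. They comprised 66 genes for the subunits that form channels or modify them from within, 15 genes for helper subunits and 3 noncoding RNAs of channel loci.

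The study measured total RNA from a brain hemisphere of male C3HeB/FeJ mice with expression arrays, 1 array per mouse. The 6 creatine-fed mice had free access to pellets supplemented with 1% creatine for 6 months, and the 7 untreated mice ate equicaloric pellets lacking it. The mice were 10 to 12 weeks old when feeding began, and both groups were of the same strain and sex with no engineered allele named. Each array carries a biological replicate number. Because tissue was taken whole, a change in the share of a cell type and a change in RNA per cell cannot be told apart. Creatine is a guanidino compound that creatine kinases phosphorylate to buffer ATP.

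Potassium channels let potassium leave a cell and so set its resting potential, end its action potentials and limit its firing rate. Voltage-gated channels open on depolarisation, calcium- and sodium-activated channels open after ion entry, inward rectifiers hold the resting potential, and 2-pore channels carry background leak. Helper subunits change the gating, trafficking or inactivation of the pore-forming ones.

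Values are intensities in array units on a linear scale. Intensities of different probe sets depend on their probes, so genes were compared between mice and not with each other. A difference is the mean of log2(intensity + 16) in creatine-fed mice minus that in untreated mice. Limma was fitted over all 45037 probe sets, and adjusted p-values are Benjamini-Hochberg values over all of them.

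None of the 167 potassium channel probe sets passed an adjusted p of 0.05 in limma, where 4 of 45037 probe sets passed (0.00888%). The count over all probe sets was unstable: it was 0 without creatine-fed replicate 3 or 5 or any 1 of untreated replicates 2 to 6, 36 with an offset of 50 and 161 with a trended, robust variance. The smallest adjusted p among the 167 potassium channel probe sets was 0.183, at the brightest probe set of Kcnma1. At an unadjusted p under 0.05, 23 of the 167 probe sets differed, against 11.9% of all probe sets. At the brightest probe sets this was 11 of 84 genes (13.1%), beside 11.2% of all genes, a share near that background. The 11 divided into 6 genes with higher means in creatine-fed mice (all genes: 3.58%) and 5 with lower means (all genes: 7.61%).

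The split depended on scaling and on single mice. It was 11 higher and 2 lower with array medians made equal, and 7 higher and 3 lower after quantile normalization. Leaving out creatine-fed replicate 2 gave 10 higher and 2 lower. The number lower was 2 without creatine-fed replicate 1, 8 without creatine-fed replicate 6, and 3 without untreated replicate 3, 4 or 5. No direction is therefore given for the family.

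The median difference over the 84 genes was 0.00, beside -0.03 over all genes, and single genes ran from -0.41 to 0.48. Of the 84, 43 had higher and 41 lower means in creatine-fed mice, where 41.5% of all genes had higher means. The difference was smaller than 0.25 in size for 70 genes, and for 64 the 95% confidence interval lay between -0.5 and 0.5. Only Kcnma1 had groups that did not overlap, against 0.649% of all genes.

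**Figure D1:**
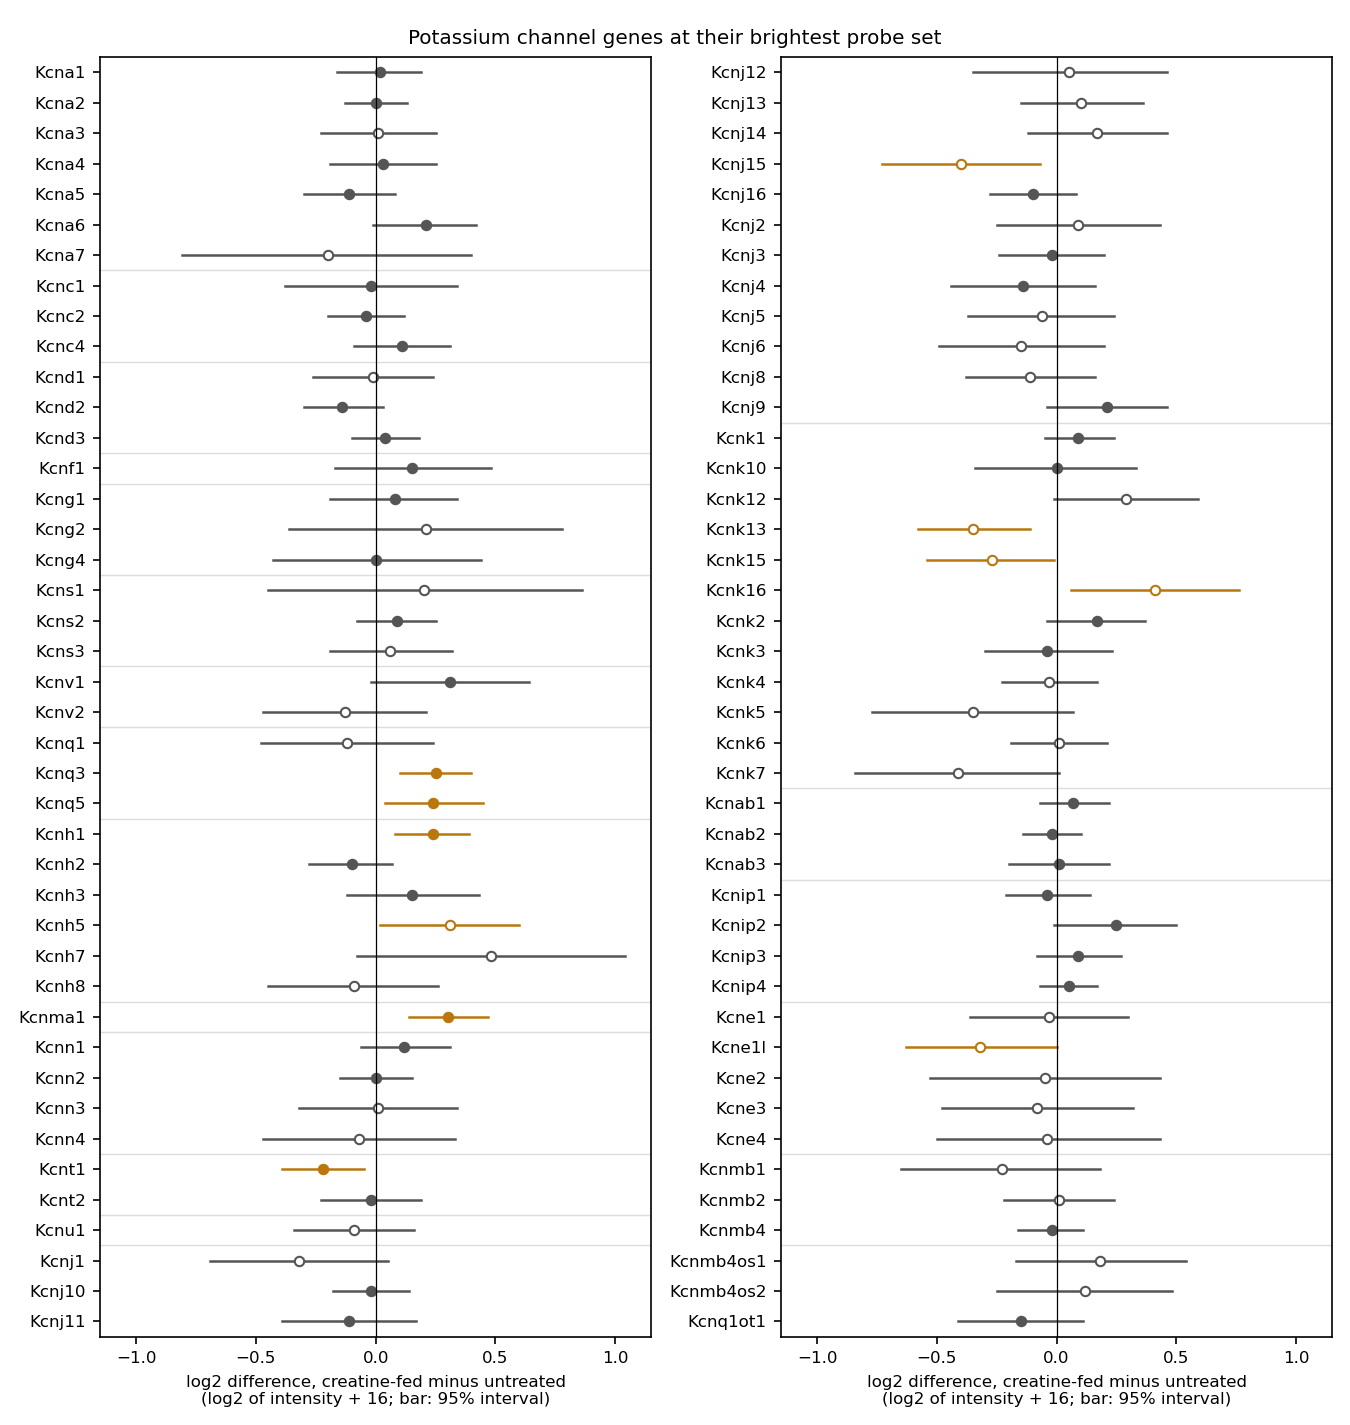
Difference between creatine-fed and untreated mice for each of the 84 potassium channel genes at its brightest probe set, on the log2(intensity + 16) scale, with 95% confidence intervals; grey lines separate subfamilies. Filled points lay above the array median on all 13 arrays and open points did not; the 11 genes in orange had an unadjusted p under 0.05, and none passed after adjustment.

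Intervals were wider, by their median, among dimmer genes. The brightest probe set lay above the array median on all 13 arrays for 44 genes, on some arrays for 20 and on none for 20. Median half-widths of the 95% interval were 0.19 for the 44 genes and 0.35 for the 28 genes whose probe set had a mean below the median of all probe sets. In the brighter part of the array, 4 of 56 genes had higher means at an unadjusted p under 0.05 (all genes there: 4.73%) and 2 lower means (all genes there: 7.15%). When the fit was made on the brighter probe sets alone, 7 were higher and 2 lower.

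Markers of cerebellum differed widely between mice. All 6 neuronal, 10 astrocyte, 7 oligodendrocyte and 7 cortical markers lay above the array median on all arrays, and none of 93 cell type and region markers was listed at 0 on any array. Gabra6, a GABA receptor subunit of cerebellar granule cells, read 22 in untreated replicate 3, 556 in creatine-fed replicate 4 and between 873 and 2494 in the other 11 mice. Untreated replicate 3 thus stood apart, and creatine-fed replicate 4 was the next lowest. Without both, 0 of the 167 probe sets passed, with 7 genes higher and 4 lower at an unadjusted p under 0.05.

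Brainstem and oligodendrocyte markers were lower on average in creatine-fed mice, and cortical markers were higher. Of 8 measured brainstem markers 7 had lower means in creatine-fed mice (all genes: 10641 of 18193). Their summed intensities were 112 to 267 against 158 to 491 in untreated mice. None of the 8 lay above the array median on all arrays. Their median difference was -0.52, and 4 of the 8 had an unadjusted p under 0.05 (all genes: 11.2%). Of 7 oligodendrocyte markers 6 had lower means, with a median difference of -0.17 and summed intensities of 16479 to 18692 against 18043 to 22444. All 7 cortical markers had higher means (all genes: 41.5%), by a median of 0.07, and 1 of them had an unadjusted p under 0.05. The 8 cerebellar granule markers had summed intensities of 3094 to 8770 in creatine-fed and 1102 to 11509 in untreated mice. The fit was repeated with the cerebellar and brainstem marker means as covariates, and selected values from it are given below. The brainstem mean itself differed by diet, by -0.51, so diet and that covariate overlap. Differences from the covariate fit are given without intervals, as descriptions only. In that fit 2 of the 11 genes, Kcnma1 and Kcnj15, still had an unadjusted p under 0.05. A lost p did not always come with a smaller difference: Kcne1l went from -0.32 to -0.42, while Kcnk13 went from -0.35 to -0.29 and Kcnt1 from -0.22 to -0.15. What part these regions have in the other 9 was not tested.

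The Kcna, Kcnc and Kcnd genes encode the pore-forming subunits of delayed-rectifier and A-type voltage-gated channels. None of the 13 measured had an unadjusted p under 0.05, and their differences ran from -0.20 to 0.21 with a median of 0.00. Kcna1, the axonal delayed rectifier Kv1.1, ranged from 1587 to 1825 (median 1712) in creatine-fed mice and from 1373 to 1994 (median 1739) in untreated mice. The creatine-fed values lay inside the untreated range. The difference was 0.02 ± 0.08 (SE), with a 95% interval of -0.16 to 0.19, and 0.16 with the covariates.

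Kcna2, its partner Kv1.2, had means of 1034 ± 52.5 (SD, n = 6) and 1033 ± 61.3 (SD, n = 7), and a 95% interval of -0.13 to 0.13. Kcna4, an A-type Kv1 subunit, read 75.7 ± 15 (SD, n = 6) and 73.1 ± 7.13 (SD, n = 7). Kcna6, another Kv1 subunit, had the smallest p of the subfamily, with 288 ± 38.8 (SD, n = 6) against 247 ± 33.6 (SD, n = 7) and a difference of 0.21 (adjusted p = 0.454). Its groups overlapped, with 1 creatine-fed mouse above every untreated mouse, and its other 2 probe sets differed by 0.01 and -0.02.

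Kcnc1 encodes Kv3.1, a channel of fast-spiking neurons and cerebellar granule cells. It ranged from 761 to 1283 in creatine-fed and from 711 to 1596 in untreated mice, with a difference of -0.02 and a wide interval of -0.38 to 0.34. Creatine-fed replicate 4 and untreated replicate 3, low in cerebellar markers, were the lowest of their groups. Another bright probe set of Kcnc1 differed by 0.37, with an unadjusted p above 0.05. Kcnc4, which encodes the A-type Kv3.4, differed by 0.11 (adjusted p = 0.698), at a probe set whose suffix marks possible matches to other transcripts.

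Kcnd2, the dendritic A-type channel Kv4.2, ranged from 884 to 1154 (median 1096) in creatine-fed mice and from 1048 to 1286 (median 1185) in untreated mice. Each of the 6 creatine-fed values was under the mean of the untreated mice, and the groups overlapped. The difference at this probe set was -0.14 ± 0.08 (SE, adjusted p = 0.512). It was opposite at 2 other bright probe sets of the gene (441 ± 37.7 against 362 ± 50.7, difference 0.28, and 724 ± 95.6 against 597 ± 83.2, difference 0.27), both at an unadjusted p under 0.05. The array therefore gives no single direction for Kcnd2.

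Kcnf, Kcng, Kcns and Kcnv subunits do not form channels alone but join other voltage-gated subunits and alter their gating. Of 9 such genes 8 had higher and 1 lower means in creatine-fed mice (higher over all genes: 41.5%). None of the 9 had an unadjusted p under 0.05. Kcnv1 had the smallest p, ranging from 126 to 222 (median 162) against 88 to 178 (median 129), a difference of 0.31 (adjusted p = 0.459). Its other 2 probe sets, both above the array median on all arrays, differed by 0.01 and 0.05. Kcnf1 differed by 0.15, Kcng2 by 0.21 and Kcns2 by 0.09, each with an interval that spanned 0. With the covariates Kcnv1 differed by 0.12, Kcnf1 by -0.07 and Kcng2 by -0.57. Kcng4, counted among the 8, differed by 0.00, or by 0.22 with the covariates (adjusted p = 0.66). Its mean intensity was 113 in creatine-fed and 117 in untreated mice. Kcng4 had the widest spread within groups of the 44 brighter genes, an SD of 0.40 on the log2 scale.

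Kcnq subunits carry the M-current, a slow current that damps repetitive firing and that muscarinic receptors suppress. Kcnq3 ranged from 699 to 826 (median 787) in creatine-fed mice and from 554 to 701 (median 652) in untreated mice. In 5 of 6 creatine-fed mice it was above every untreated mouse, and the sixth was just under the highest untreated value. The difference was 0.25 ± 0.07 (SE), from means of 769.7 ± 52.2 and 644 ± 45.4, and did not pass (adjusted p = 0.201).

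Kcnq5, which encodes a further M-current subunit, ranged from 341 to 444 (median 407) against 259 to 389 (median 325). In 4 of 6 creatine-fed mice it was above every untreated mouse, and the difference was 0.24 ± 0.10 (SE, adjusted p = 0.345). Further probe sets pointed the same way for both genes: 0.23 at the other probe set of Kcnq3, and 0.19 and 0.10 at the others of Kcnq5. With the cerebellar and brainstem covariates the differences were 0.15 for Kcnq3 and 0.13 for Kcnq5. Kcnq1, the cardiac and epithelial subunit, was dim and differed by -0.12.

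Kcnh genes encode the ether-a-go-go, erg and elk channels. Kcnh1, the ether-a-go-go channel of brain, ranged from 529 to 679 (median 628) in creatine-fed mice and from 480 to 575 (median 508) in untreated mice. In 5 of 6 creatine-fed mice it was above every untreated mouse. The difference was 0.24 ± 0.07 (SE, adjusted p = 0.236), 0.21 at its second probe set, and 0.14 at the brightest with the covariates.

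Of the 6 Kcnh genes measured, Kcnh1 and Kcnh5 had an unadjusted p under 0.05, both higher (all genes: 3.58%), and the subfamily's differences ran from -0.10 to 0.48. Kcnh5, a close relative of Kcnh1, was dim at 27.5 ± 7.45 (SD, n = 6) against 19.3 ± 6.87 (SD, n = 7), and its difference of 0.31 was 0.06 with the covariates.

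Kcnma1 encodes the large-conductance BK channel, which opens with calcium and voltage together and shortens action potentials. It read 388 to 468 (median 401) in the creatine-fed mice and 283 to 385 (median 344) in the untreated mice. All 6 creatine-fed mice were above all 7 untreated mice, with a narrow gap between the lowest creatine-fed and the highest untreated value. The difference was 0.30 ± 0.08 (SE), or 1.23-fold on the log2(intensity + 16) scale, from means of 416 ± 32 and 335 ± 32.8, and did not pass (adjusted p = 0.183).

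Over the 24 alternatives tried, the difference of Kcnma1 stayed between 0.26 and 0.35, with an adjusted p of 0.0526 to 0.61. It was 0.34 with the cerebellar and brainstem covariates. The other probe sets of Kcnma1 did not all point one way. The means of 3 were higher in creatine-fed mice, by 0.41 (152 ± 35.7 against 111 ± 34.3), 0.23 (113 ± 11.6 against 93.7 ± 10.1) and 0.14. The fourth, a dim one, had a lower mean, at 15.7 ± 6.53 against 26.3 ± 6.82 (difference -0.43, adjusted p = 0.257).

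**Figure D2:**
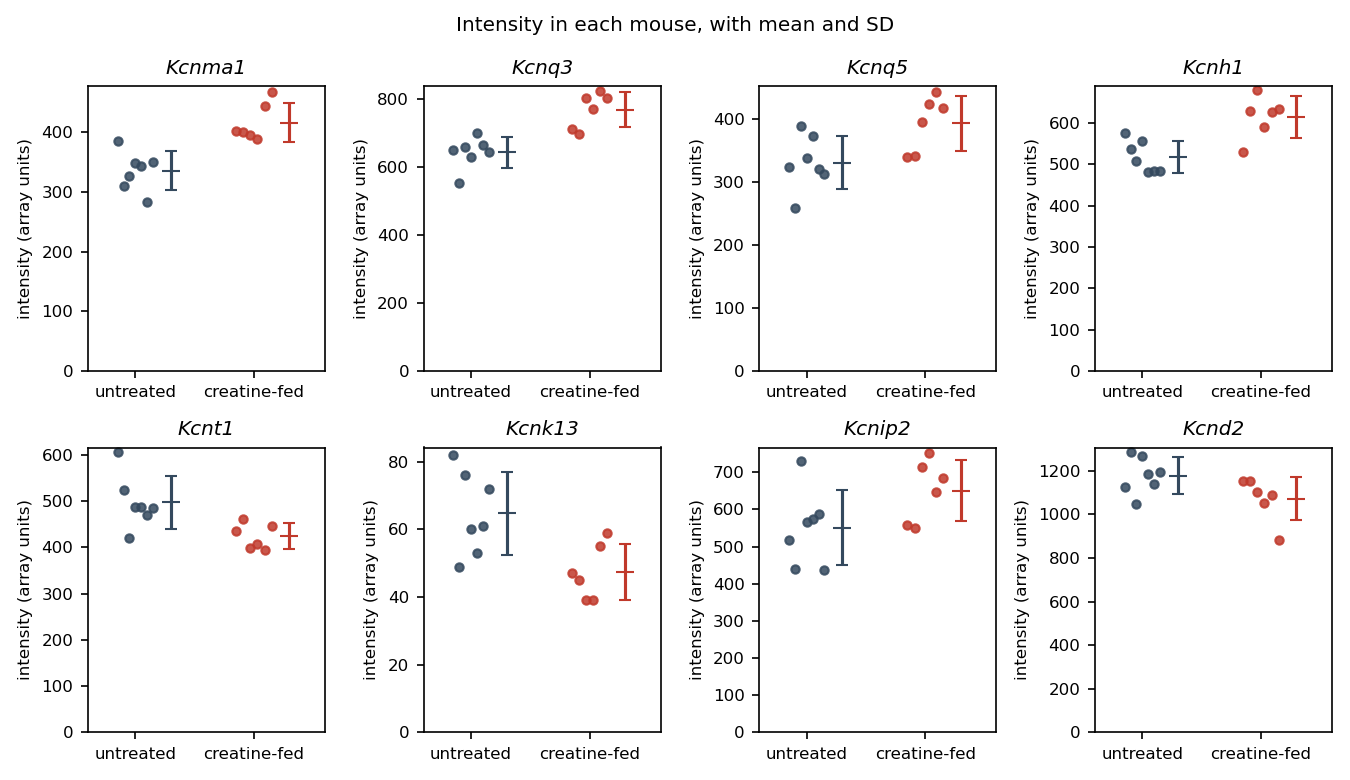
Intensity in each of 7 untreated and 6 creatine-fed mice at the brightest probe set of 8 potassium channel genes, with the group mean and SD beside the points; each axis starts at 0. Only Kcnma1 had groups that did not overlap.

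None of the 3 beta subunit genes of the BK channel had an unadjusted p under 0.05 at its brightest probe set. Kcnmb4, its brain beta subunit, read 718 ± 38 (SD, n = 6) and 730.1 ± 45.1 (SD, n = 7), with an interval of -0.16 to 0.11. Kcnmb2 differed by 0.01 at its brightest probe set but by -0.30 at its other one (40.7 ± 6.65 against 53.7 ± 5.94, adjusted p = 0.207). Kcnmb1, the smooth-muscle beta subunit, was dim and differed by -0.23.

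Kcnn genes include those of small-conductance channels, which follow a spike and set the afterhyperpolarisation. Kcnn2 read 227 ± 21.1 (SD, n = 6) and 226 ± 12.8 (SD, n = 7), an interval of -0.15 to 0.15, and Kcnn1 differed by 0.12. With the covariates Kcnn2 differed by 0.13 and Kcnn1 by 0.00. None of the 4 Kcnn genes had an unadjusted p under 0.05.

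Kcnt1 encodes the sodium-activated channel Slack. It ranged from 394 to 462 (median 422) in creatine-fed mice and from 421 to 605 (median 486) in untreated mice. All 6 creatine-fed mice were below the untreated mean and 3 were below every untreated mouse. The difference was -0.22 ± 0.08 (SE, adjusted p = 0.307), while its other probe sets differed by 0.00 and -0.10. Kcnt2, its relative Slick, differed by -0.02, and Kcnu1, a sperm channel of the same structural family, by -0.09, or by -0.32 with the covariates.

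Inward rectifiers of the Kcnj subfamily include the G protein-gated GIRK channels (Kcnj3, Kcnj5, Kcnj6, Kcnj9), the pore of ATP-sensitive channels (Kcnj8, Kcnj11) and glial channels (Kcnj10, Kcnj16). Of 15 measured genes 1, Kcnj15, had an unadjusted p under 0.05 (all genes: 11.2%). In all, 5 of the 15 had higher and 10 lower means (higher over all genes: 41.5%). Kcnj15 was dim at 8.83 ± 6.55 (SD, n = 6) against 16.1 ± 4.56 (SD, n = 7), so its difference of -0.40 (adjusted p = 0.331) moved from -1.11 with an offset of 1 to -0.17 with an offset of 50. It was -0.82 with the covariates.

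Kcnj10, the astrocyte channel Kir4.1, ranged from 733 to 788 (median 756) in creatine-fed mice and from 655 to 899 (median 805) in untreated mice. The creatine-fed values fell inside the untreated range, with a difference of -0.02 and an interval of -0.18 to 0.14, and of 0.11 with the covariates. Of 10 astrocyte markers 9 had lower means in creatine-fed mice (all genes: 10641 of 18193). Their median difference was -0.11, with summed intensities of 16981 to 17758 against 17663 to 19845. The part of astrocyte content in the Kcnj10 values was not tested beyond the relation given below. Kcnj16, its partner Kir5.1, differed by -0.10.

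Among the GIRK subunits, Kcnj3 differed by -0.02. Kcnj9 differed by 0.21 at its brightest probe set (adjusted p = 0.521) but by -0.01, -0.11 and -0.23 at the other 3, the last a dim one with an unadjusted p under 0.05. Kcnj6 gave no single direction either: its 5 probe sets, none above the array median on all arrays, differed by -0.36 to 0.41, with 1 higher and 1 lower at an unadjusted p under 0.05. Kcnj8, the ATP-sensitive pore of vascular mural cells, differed by -0.11, or by -0.23 with the covariates.

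The Kcnk genes encode 2-pore leak channels. Of 12 measured genes 3 had an unadjusted p under 0.05 (all genes: 11.2%), 1 higher and 2 lower. Kcnk13, whose channel THIK-1 is known from microglia, ranged from 39 to 59 (median 46) in creatine-fed mice and from 49 to 82 (median 61) in untreated mice. All 6 creatine-fed mice were below the untreated mean and 4 were below every untreated mouse. The difference was -0.35 ± 0.11 (SE, adjusted p = 0.255). The 6 microglial markers all had higher means in creatine-fed mice (all genes: 41.5%), by a median of 0.08. None of them had an unadjusted p under 0.05.

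The other 2 were dim. Kcnk16 read 16.8 ± 6.55 (SD, n = 6) against 8.86 ± 6.18 (SD, n = 7), and its difference of 0.41 ran from 0.18 to 1.05 over the alternatives. Kcnk15 read 11.8 ± 3.76 (SD, n = 6) against 17.9 ± 5.81 (SD, n = 7), a difference of -0.27, or -0.17 with the covariates. Kcnk7 (-0.41) and Kcnk12 (0.29) had wide intervals that spanned 0.

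Kcnk1 and Kcnk2 were bright, with no unadjusted p under 0.05. Kcnk1, the TWIK-1 channel, read 844 ± 77.2 (SD, n = 6) and 787 ± 23.7 (SD, n = 7), with an interval of -0.05 to 0.24. In 5 of 6 creatine-fed mice it was above every untreated mouse, while creatine-fed replicate 6, at 694, was below them all. Kcnk2, the mechanosensitive TREK-1 channel, read 434 ± 58.9 (SD, n = 6) and 384 ± 40.5 (SD, n = 7), a difference of 0.17 (adjusted p = 0.528) that was 0.02 with the covariates.

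Of the 15 helper subunit genes 1 had an unadjusted p under 0.05 (all genes: 11.2%). This was Kcne1l, a relative of the single-pass Kcne subunits, which was dim at 29.8 ± 9.26 (SD, n = 6) against 40.7 ± 9.76 (SD, n = 7) and differed by -0.32 (adjusted p = 0.42). Of the cytoplasmic beta subunits of Kv1 channels, Kcnab1 differed by 0.07. Kcnab2 differed by -0.02 (interval -0.14 to 0.10) at its brightest probe set and by 0.17 at the other (609.8 ± 67.1 against 539 ± 55.2, adjusted p = 0.449).

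Kcnip genes encode the calcium-binding KChIP subunits of Kv4 channels. Kcnip2 ranged from 549 to 751 (median 666) against 436 to 731 (median 565), a difference of 0.25 ± 0.12 (SE, adjusted p = 0.445). Of the 6 creatine-fed mice 5 were above the mean intensity of the untreated mice, the groups overlapped widely, and the difference was 0.00 with the cerebellar and brainstem covariates. Kcnip4 differed by 0.05, with an interval of -0.07 to 0.17.

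The noncoding members were 3 RNAs. Kcnq1ot1, an imprinted antisense RNA of the Kcnq1 locus, read 349.5 ± 82.3 (SD, n = 6) and 382 ± 30 (SD, n = 7) at its brightest probe set, a difference of -0.15. The difference was 0.09 with the covariates. At 2 of its other probe sets the means were also lower, with an unadjusted p under 0.05 (104 ± 20.2 against 141 ± 30.4, difference -0.38, and 173 ± 27.9 against 209.7 ± 8.64, difference -0.27). The other 3, which were not above the array median on all arrays, had higher means.

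Probe sets of one gene often disagreed. Of the 46 genes with several probe sets, 22 had the same sign at all of them and 24 did not. The widest ranges were those of Kcnma1 (-0.43 to 0.41), Kcnq1ot1 (-0.38 to 0.39), Kcnj6 (-0.36 to 0.41), Kcna1 (-0.27 to 0.37) and Kcnip2 (-0.21 to 0.25). In Kcnma1, Kcna1 and Kcnip2 the negative end was a probe set that lay at or below the array median on every array.

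**Figure D3:**
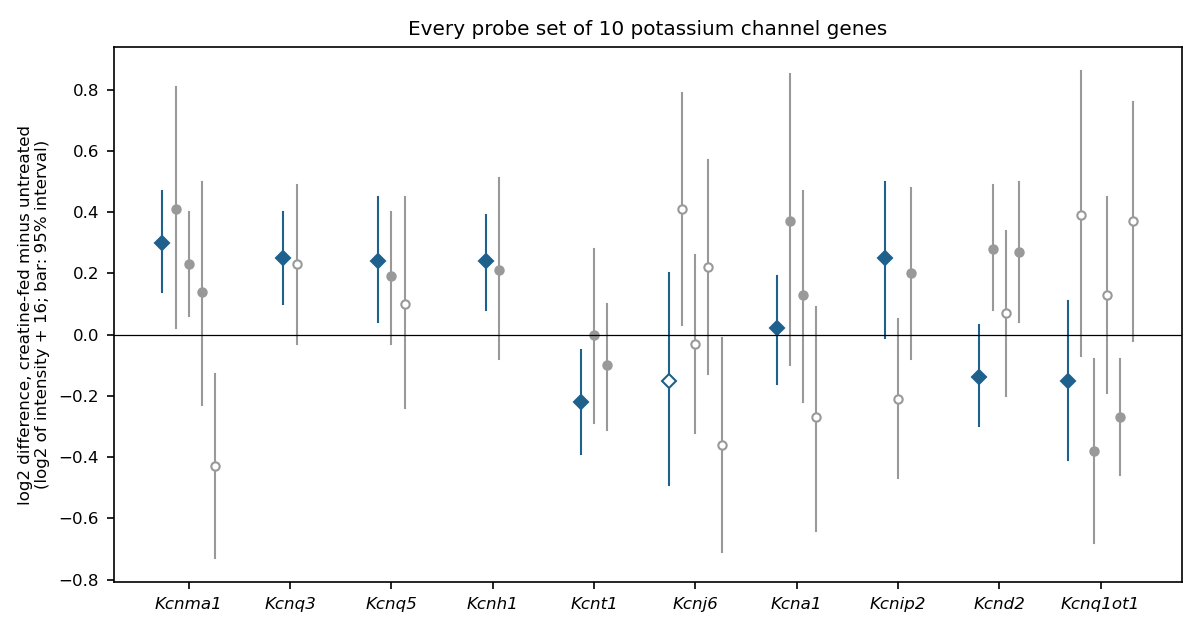
Difference between creatine-fed and untreated mice, with 95% confidence intervals, at every probe set of 10 potassium channel genes; blue diamonds are the brightest probe set of each gene, grey circles the others, and open symbols did not lie above the array median on all 13 arrays. All probe sets of Kcnq3, Kcnq5 and Kcnh1 lie above 0, whereas those of Kcnma1, Kcna1, Kcnip2, Kcnd2, Kcnj6 and Kcnq1ot1 lie on both sides.

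Genes that work with these channels but carry other names were examined as a list of 25 measured genes. Of these, 6 had an unadjusted p under 0.05, 5 higher and 1 lower (all genes: 3.58% and 7.61%), and none passed after adjustment (smallest adjusted p = 0.316). The hyperpolarisation-activated channel gene Hcn2 read 284 ± 20.3 against 234 ± 40.2 (difference 0.28). Amigo1, a membrane partner of voltage-gated channels, differed by 0.27, Akap5, an anchor for M-channel regulation, by 0.18, and Cntnap1, a paranodal adhesion protein, by 0.29. The ankyrins, which anchor channels at the axon, went apart: Ank3 differed by 0.18 and Ank2 by -0.17.

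Several potassium channel genes followed the amount of cerebellar signal in a mouse. After the values were seen, all 84 genes were compared with the mean of the 8 cerebellar granule markers over the 13 mice. Both Pearson's r and Spearman's rho passed for 7 genes, by permutation tests adjusted over the 84, with 4 positive and 3 negative. The share of all genes on the array with such a relation was not computed. The 7 are therefore no result about potassium channel genes as a family. Kcnj12, Kcnk10 and Kcnh3 were named after their values were seen.

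The positive relations were those of Kcnj12, Kcng4, Kcnc1 and Kcnk10. Kcnj12, an inward rectifier, read 30 in untreated replicate 3 and 51 in creatine-fed replicate 4, and 61 to 117 elsewhere (r = 0.94, permutation p = 1e-05, adjusted 0.00028; rho = 0.87, permutation p = 0.00019, adjusted 0.00399). Kcng4 read 47 and 86 in those mice and 96 to 155 elsewhere (r = 0.94, adjusted permutation p = 0.00084; rho = 0.89, adjusted 0.00399). These 2 mice were the lowest for both genes.

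Kcnc1 read 711 and 761 in them and 905 to 1596 elsewhere (r = 0.88, adjusted permutation p = 0.00028; rho = 0.90, adjusted 0.00294). Kcnk10, the leak channel TREK-2, read 59 and 67 and then 78 to 142 (r = 0.85, adjusted permutation p = 0.00028; rho = 0.99, adjusted 0.00084). The p of 1e-05 is the smallest that 100000 resamples can give. Without the 2 mice, r over the other 11 was 0.83 for Kcnj12, 0.75 for Kcng4, 0.92 for Kcnc1 and 0.91 for Kcnk10. Each relation was also positive within both diets, with r from 0.87 to 0.99.

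Kcns2, Kcnf1 and Kcnh3, of which Kcnh3 encodes a forebrain elk channel, ran the other way. Kcnf1 read 420 in untreated replicate 3 and 206 in untreated replicate 2, which had the highest cerebellar mean (r = -0.76, adjusted permutation p = 0.00532; rho = -0.84, adjusted 0.00874). Kcnh3 gave r = -0.71 (adjusted permutation p = 0.0414) and rho = -0.83 (adjusted 0.0106), and Kcns2 r = -0.76 (adjusted 0.0414) and rho = -0.77 (adjusted 0.0311). Without the 2 mice r was -0.84, -0.83 and -0.78 for Kcnf1, Kcnh3 and Kcns2.

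**Figure D4:**
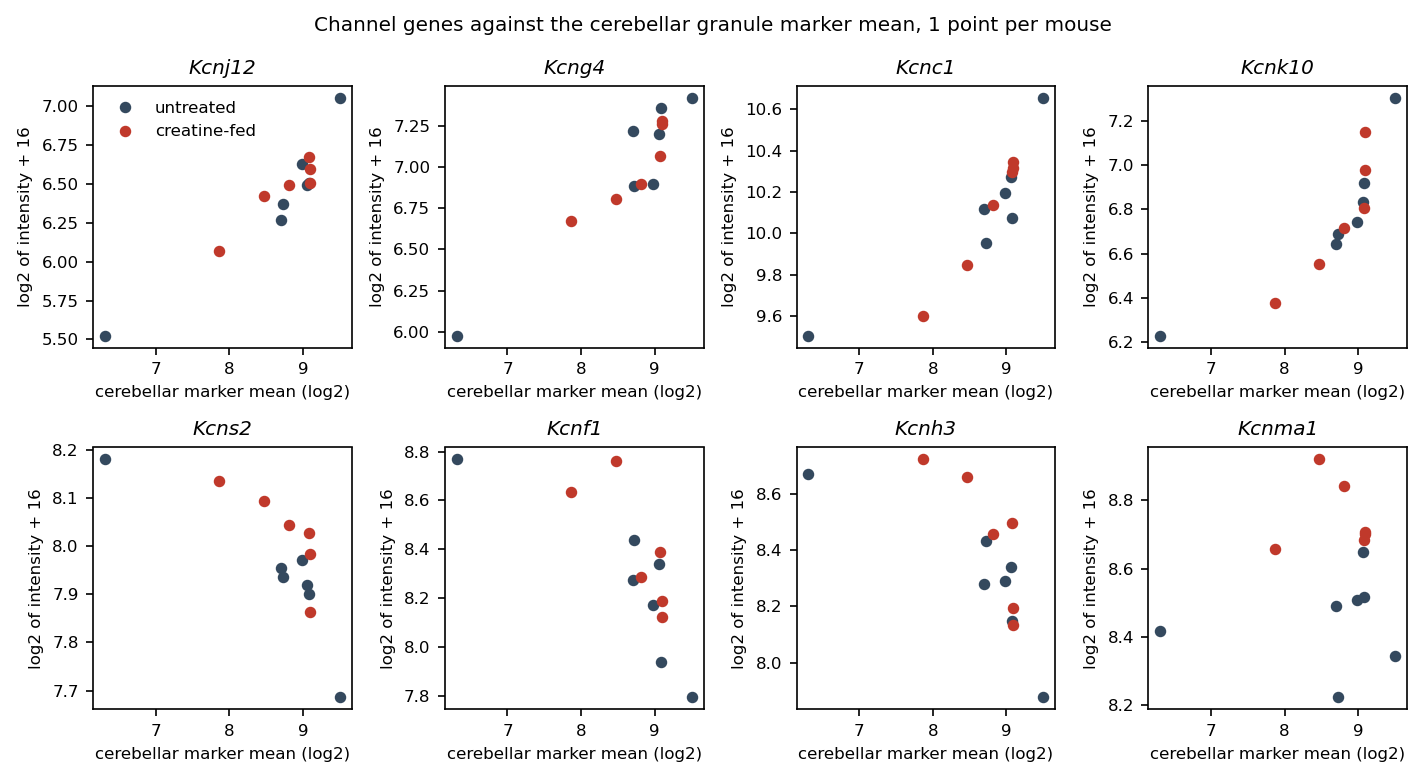
Log2(intensity + 16) of 8 potassium channel genes against the mean log2 value of 8 cerebellar granule markers, 1 point per mouse (7 untreated, 6 creatine-fed). Kcnj12, Kcng4, Kcnc1 and Kcnk10 were higher and Kcns2, Kcnf1 and Kcnh3 lower in mice with more cerebellar signal, in both diets; Kcnma1 showed no such slope (r = 0.10).

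None of these 7 genes had an unadjusted p under 0.05 for diet in the reported fit. Their differences there were 0.05 for Kcnj12, 0.00 for Kcng4, -0.02 for Kcnc1, 0.00 for Kcnk10, 0.09 for Kcns2 and 0.15 for both Kcnf1 and Kcnh3. With the cerebellar and brainstem covariates Kcng4 differed by 0.22, at an unadjusted p under 0.05 (adjusted p = 0.66). Of the genes described above for their differences by diet, Kcnma1 (r = 0.10), Kcnq3 (-0.15) and Kcnh1 (0.16) gave values near 0 with the cerebellar mean. Kcnq5 had an r of -0.49 that did not pass (adjusted permutation p = 0.372). Without the 2 mice r was -0.72 for Kcnq5, -0.63 for Kcnq3, -0.33 for Kcnma1 and -0.04 for Kcnh1.

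A further 9 relations paired a channel gene with markers of the cells or region where it is known to be strong. None passed after adjustment over the 9 (smallest adjusted permutation p = 0.0514). Kcna1 with 8 brainstem markers gave r = 0.62 (permutation p = 0.0195, adjusted 0.0514) and rho = 0.69 (permutation p = 0.0122, adjusted 0.0911). Within the diets r was 0.96 over the 7 untreated and 0.61 over the 6 creatine-fed mice. Over the deviations of the 13 mice from the mean of their diet r was 0.87. The pooled r was 0.35 without the 2 mice farthest from the median, so the pooled value rested on them.

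Kcnip2 with 6 striatal markers gave r = 0.65 (permutation p = 0.0167, adjusted 0.0514) and rho = 0.59 (permutation p = 0.0387, adjusted 0.0911), and r = 0.53 without the 2 farthest mice. With the cerebellar markers Kcnip2 gave r = -0.65 (adjusted permutation p = 0.0554) and rho = -0.78 (adjusted 0.0311), of which rho passed. Kcnj13 and Kcne2, channel genes of the choroid plexus, gave r = 0.62 and 0.65 with 9 choroid plexus markers (permutation p = 0.0229 and 0.0157, both adjusted 0.0514; rho = 0.58 and 0.61, both adjusted 0.0911). Without the 2 farthest mice r stayed at 0.63 for Kcnj13 and was 0.32 for Kcne2, which thus rested on them. Their differences by diet were 0.10 and -0.05, and 0.30 and 0.41 with the covariates.

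**Figure D5:**
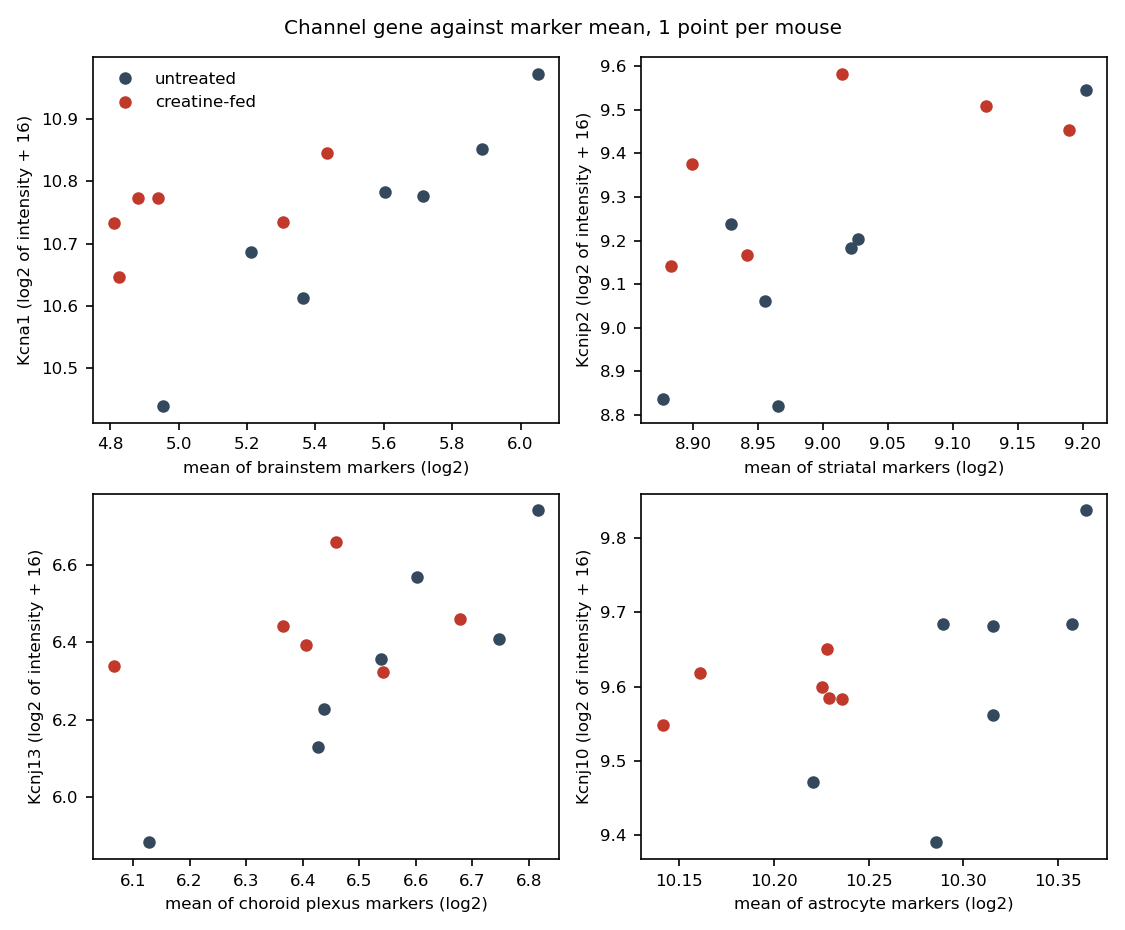
Log2(intensity + 16) of 4 potassium channel genes against the mean log2 value of the markers of a region or cell type, 1 point per mouse (7 untreated, 6 creatine-fed). Kcna1 increased with brainstem markers within the untreated mice (r = 0.96). The creatine-fed mice had lower brainstem values on average, but the groups overlapped (4.81 to 5.43 against 4.95 to 6.05).

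The other relations were weaker in the pooled values. Kcnj10 with astrocyte markers gave r = 0.45 (permutation p = 0.117, adjusted 0.157; rho = 0.52, permutation p = 0.0708, adjusted 0.128), and r = 0.07 without the 2 farthest mice. Kcnj16 with the same markers gave r = 0.45 (adjusted permutation p = 0.157) and rho = 0.32 (adjusted 0.317). Kcnj8 with mural, Kcnj6 with cerebellar and Kcnc1 with brainstem markers gave r of 0.07, 0.22 and 0.55 (adjusted permutation p = 0.826, 0.465 and 0.092). Over the deviations from the diet means r was 0.73 for Kcnip2 and Kcnj13, 0.68 for Kcnc1, 0.66 for Kcne2 and 0.61 for Kcnj10. It was 0.30 for Kcnj16, 0.25 for Kcnj6 and -0.07 for Kcnj8. No test was made of the values over deviations.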

How the data were processed

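Intensities were deposited by the authors as 1 whole number per probe set and array on a linear scale, with zeros. The mean of each array after trimming 2% at either end was close to 150, and array medians ran from 37 to 45. The submitters' processing notes name only RMA, which returns log2 values; the tool that scaled them is not stated in these sources. Values were used without further scaling, as log2(value + 16). The 64 control probe sets were left out and 45037 tested with limma 3.58.1 (lmFit, eBayes) in R 4.3.3 on diet alone, 2-sided, with no filter, at an adjusted p of 0.05; the procedure was tested on simulated data. Relations used 100000 permutations. Symbols came from the platform annotation; all 84 genes matched RefSeq by gene ID. Nothing in the labels gives a batch, and the number of arrays limits precision.

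The members, lists and alternatives were chosen with earlier results of these data known. Named genes are, in each subfamily, the brightest and the smallest p; the 15 smallest p; genes whose groups did not overlap; the 5 with the widest probe set disagreement; fixed lists of brain channels and of genes for marker relations; and partners with an unadjusted p under 0.05. Kcnj9, Kcnj12, Kcnh3, Kcnk3, Kcnk10, Kcnmb2, Kcnq1 and Kcnt2 were chosen after their values were seen. Limma p-values set a difference by diet against the spread between mice of one diet. Permutation p-values compare a relation with those found after shuffling the mice.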

Additional observations from a re-analysis of the deposited data

Results flagged for a closer look

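In groups of 6 and 7 mice, 1 mouse lay far from the rest of its group for 6 of the 88 gene and diet groups checked; chance flags about 1 in 20. Kcng4 read 47 in untreated replicate 3 and 102 to 155 in the other untreated mice; that mouse also had the lowest cerebellar markers. Kcnd2 read 884 in creatine-fed replicate 6 and 1050 to 1154 in the others of its group. Kcnk1 was also lowest in creatine-fed replicate 6, at 694 against 847 to 911. Kcnh5 was highest in creatine-fed replicate 3, at 42 against 21 to 27. Untreated replicate 7 was lowest for Kcnc4, at 209 against 253 to 284, and for Kcnu1, at 28 against 41 to 53.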

How the results depend on the processing

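No potassium channel probe set passed under any of 24 alternatives to the reported fit, whose smallest adjusted p ran from 0.0526 to 0.46; at thresholds of 0.1 and 0.2, 0 and 1 passed. The 6 genes higher and 5 lower at an unadjusted p under 0.05 became 11 and 2 with array medians equal, 2 and 2 with the cerebellar and brainstem covariates, and 11 and 4 when untreated replicate 3 and creatine-fed replicate 2 were left out together. They were 7 and 2 among the 56 of 84 genes on brighter probe sets, fitted alone. The number lower was 3 with an offset of 1, with quantile normalization and with the replicate block. Leaving out single mice gave 4 to 10 higher and 2 to 8 lower. The causes were not tested. The median difference of all genes moved by less than 0.1 under every alternative. The 11 genes kept their sign throughout; of 44 named genes 16 changed sign somewhere, none of them past the threshold. Deviations of same-numbered mice of the 2 diets correlated weakly (-0.0552 to 0.146, 1 of 6 creatine-fed mice closest to its own number), so the mice were not treated as pairs. These 6 correlations cannot settle whether the numbers pair mice. With the replicate block 0 probe sets passed and 8 genes were higher. Leaving out creatine-fed replicate 4 and untreated replicate 3 and the comparison of all members with cerebellar markers were chosen after seeing the data. Dim genes, whose log2 differences depend on the offset, limit what these arrays can show.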

Other observations

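Spread between mice of one diet differed widely among the potassium channel genes measured above the array median on all arrays. The within-diet SD on the log2 scale was 0.06 for Kcnab2 and Kcnip4 and 0.08 for Kcna2 and Kcnmb4. At the other end it was 0.40 for Kcng4, 0.33 for Kcnc1 and 0.30 for Kcnk10 and Kcnv1. Of these 4, the first 3 are among the genes that followed the cerebellar markers. Kcnk3, the leak channel TASK-1, was chosen after its values were seen. It read 110 in untreated replicate 3 and 214 in untreated replicate 2, the mice with the lowest and the highest cerebellar mean (r = 0.82, adjusted permutation p = 0.00118; rho = 0.72, adjusted 0.0595, which did not pass).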
